A study of Rattus norvegicus with 16 samples.

Results

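The effect of exercise training on hippocampal gene expression in young adult rats was examined by comparing 4 young trained with 4 young sedentary libraries, 8 of the 16 libraries in the table analysed here. The labels' protocols speak of 5 libraries per condition, while the table analysed here holds 4 per condition, all of which were used. The 8 rats were wild-type male Fischer-344, an inbred strain widely used in studies of aging, and were 6 months old. They were randomized to a 10-week period of exercise training or to a sedentary control condition of the same length, and hippocampi were taken 2 days after the last behavioral test, per the labels' protocols. The other 8 libraries came from wild-type male Fischer-344 rats aged 20 months, 4 trained and 4 sedentary, and are used here to estimate the spread of each gene and as values beside those of the young rats. The sources used here do not name the kind of exercise. The libraries are counts of poly(A) RNA from bulk tissue, in which fewer cells of a type and less RNA per cell cannot be told apart.

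The hippocampus is a brain region needed for forming memories of places and events, and its dentate gyrus is one of the few regions of the adult rodent brain that adds new neurons. Regular running is known in rodents to raise the number of such neurons, to raise levels of brain-derived neurotrophic factor and to change small blood vessels. Whether the genes behind those responses moved in these rats cannot be read from the values below, because the deposited counts carry Ensembl gene IDs without names, and 0 of the IDs matched the reference gene table used here. The 45 lists of pathway genes and cell type markers drawn up for this tissue were therefore not applied. For the same reason the hippocampal identity of the tissue, and the presence of neighbouring tissue such as choroid plexus, striatum or thalamus, was not checked by marker genes. Genes are described as groups by direction, size of change and expression level, and 4 of them are described by ID.

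Total counts per library were 11501097 ± 2094603 (SD, n = 4) in young sedentary and 12148554 ± 900859 (SD, n = 4) in young trained rats, and did not differ beyond the spread of the libraries (difference 647457 counts, exact permutation p = 0.571, 2-sided). The smallest p that 4 libraries against 4 can give is 0.0286. Of 32754 gene IDs, 22000 had at least 1 count in a young library. After the filter on low counts 15035 genes were tested, and these held 99.91% of the counts of the young libraries. Levels are given as CPM, read counts brought to the same library size, after TMM, a correction for differences in RNA composition.

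The young trained and young sedentary libraries lay apart on the first principal component of log2 CPM, which held 49.8% of the variance of the 8 libraries. The trained libraries lay at 28.4, 20.8, 18.2 and 43.7 for replicates 1 to 4. The sedentary libraries lay at -19.3, -34.6, -20.3 and -36.9 in the same order. The groups did not overlap, and within the sedentary group replicates 2 and 4 lay farther from the trained libraries than replicates 1 and 3. Component 2, holding a further 18%, divided the trained group in the same manner: replicates 1 and 3 lay at 22.2 and 26.2, and replicates 2 and 4 at -17.6 and -26.0. Sedentary replicates 1 and 3 were also above 0 on it, at 6.14 and 7.88, and replicates 2 and 4 were below 0, at -12.6 and -6.34. The labels give no lane, date or litter for the libraries, so what odd and even replicate numbers might share was not tested. With a term for odd and even numbers in the fit, added once the data had been seen, 2889 genes were called for training, against 2572 without it.

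**Figure D1:**
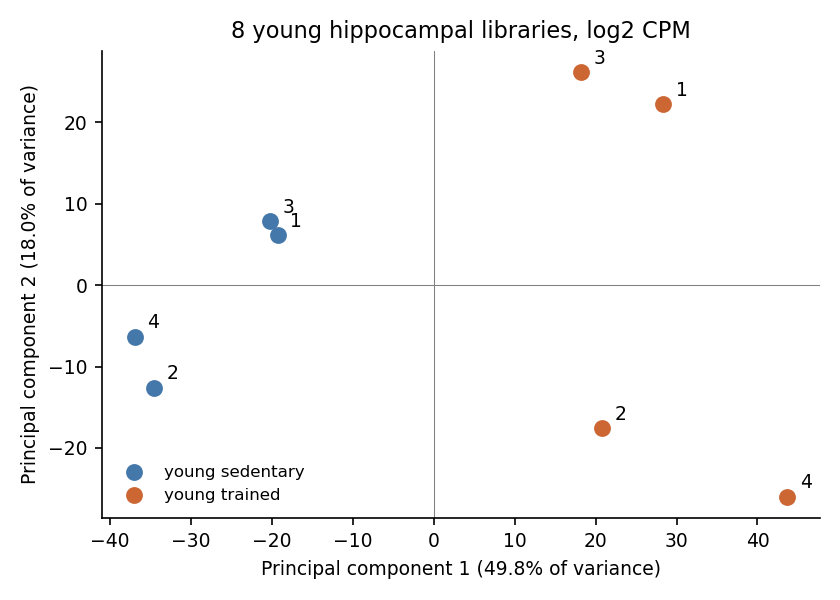
Principal components 1 and 2 of log2 CPM over the 15035 genes tested, for the 8 young libraries, with axes in component units and replicate numbers beside the points. The trained libraries all lie above 18 and the sedentary libraries all below -19 on component 1, and on component 2 replicates 1 and 3 of each group lie above 0 and replicates 2 and 4 below 0.

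Training in young rats was accompanied by lower expression of 1552 genes and higher expression of 1020 genes at an adjusted p below 0.05 in edgeR's quasi-likelihood test, or 10.3% and 6.78% of the 15035 genes tested (17.1% in all). The median log2 fold change was -0.72 among the genes that fell and 0.38 among those that rose, with a median standard error of 0.13 over all called genes. Falls of 2-fold or more numbered 450 and rises of that size 88, and for 4-fold or more the numbers were 87 and 7. Of those 7 genes, 0 had a mean of 2 CPM or more over the young libraries, against 49 of the 87. Taken by level, the medians of rises and falls were alike in size among genes of low level, at 1.64 and -1.70 under 1 CPM and 1.19 and -1.15 from 1 to 4 CPM, where the standard errors were widest. From 4 to 16 CPM they were 0.60 and -0.76, and at 256 CPM and over 0.34 and -0.52. Changes of less than 1.5-fold made up 1355 of the called genes (52.7%). The median over all genes tested was -0.02 on the log2 scale. When libraries were scaled by their totals alone, 71.8% of the called genes were lower, against 60.3% with TMM.

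**Figure D2:**
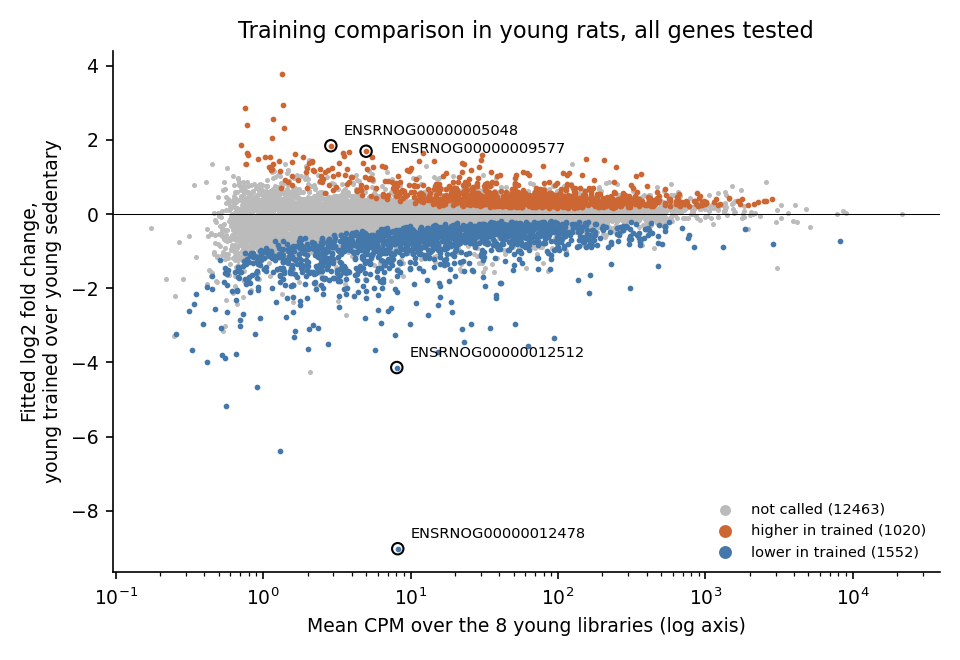
Fitted log2 fold change of young trained over young sedentary rats (vertical axis) against mean CPM over the 8 young libraries (horizontal log axis) for the 15035 genes tested, one point per gene, with genes called at adjusted p below 0.05 in colour. The points below 0 reach farther from the line than those above it, and the 4 circled genes are the ones described by ID.

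The direction of the change went with expression level. Genes were placed in classes by their mean CPM over all 8 young libraries. Under 1 CPM, 76 of 704 genes fell and 7 rose. In the class from 1 to 4 CPM, 290 of 2241 genes fell and 54 rose. From 4 to 16 CPM, 462 of 3489 fell and 113 rose. In the middle class, from 16 to 64 CPM, 470 of 5086 genes fell and 368 rose. Among genes of high level the order turned: from 64 to 256 CPM 204 of 2869 fell and 357 rose, and at 256 CPM and over 50 of 646 fell and 121 rose. Rises thus made up 15.7% of called genes in the class from 1 to 4 CPM and 70.8% in the highest class. Genes that rose had a median level of 57.4 CPM, and genes that fell one of 14.1 CPM, against 21.9 CPM over all genes tested.

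The shift was also seen without regard to calls. The median log2 fold change of all genes in a class was -0.39 under 1 CPM, -0.20 from 1 to 4 CPM, -0.09 from 4 to 16 CPM, 0.01 from 16 to 64 CPM, 0.08 from 64 to 256 CPM and 0.13 at 256 CPM and over. The large changes lay mostly at low levels. Of the 450 genes that fell at least 2-fold, 74 had a mean under 1 CPM, 178 from 1 to 4 CPM and 134 from 4 to 16 CPM. These classes held 704, 2241 and 3489 of the 15035 genes tested. Under 1 CPM, where the median standard error was 0.41, small changes were harder to call. The rises of highly expressed genes were small, with a median of 0.34 on the log2 scale among the 121 genes at 256 CPM and over, of which 2 rose at least 2-fold. Among called genes of 64 CPM and over, 34.7% were lower, and this share was 48.3% when libraries were scaled by their totals alone. It was 64% without young trained replicates 2 and 4, 59.6% without young sedentary replicates 2 and 4, and 55.6% with 2 surrogate variables, 3 alternatives picked once the data had been seen. In the class under 16 CPM the falls were the larger share in those settings as well, at 84.3%, 75.1% and 74.6%, against 82.6% with all libraries. Other settings kept rises ahead at 64 CPM and over. There the share lower was 42.5% without young sedentary replicates 1 and 3 and 33.1% without young trained replicates 1 and 3, likewise picked afterwards. With 1 surrogate variable it was 40.9%, and leaving out 1 young library gave 30.6% to 42.9%.

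**Figure D3:**
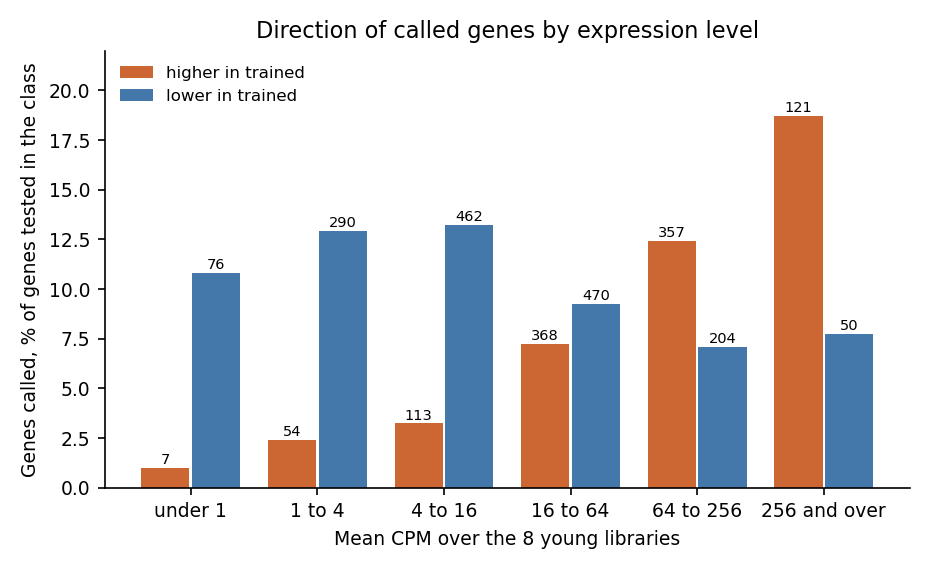
Genes called higher or lower in young trained rats as a percentage of the genes tested in each class of mean CPM over the 8 young libraries, with the number of genes above each bar. Falls outnumber rises in the 4 classes under 64 CPM and rises outnumber falls in the 2 classes above it.

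Among called genes with a mean of at least 2 CPM, ENSRNOG00000012478 had the largest fall. It stood at 9.39, 24.0, 4.59 and 27.5 CPM in young sedentary replicates 1 to 4, and at 0.0878, 0, 0 and 0 CPM in young trained replicates 1 to 4. Every sedentary library was above every trained library, and the sedentary libraries themselves spread about a mean of 16.4 ± 11.1 CPM (SD, n = 4), with replicates 2 and 4 high and replicates 1 and 3 low. In counts, 798 reads fell on this gene in the sedentary libraries and 1 in the trained libraries, so that the scaled sedentary level was 820 times the trained level. The 95% Clopper-Pearson interval of that ratio ran from 147 to 32400 and covers counting error only. Its adjusted p was 0.000513 in edgeR's quasi-likelihood test.

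ENSRNOG00000012512 had the next largest fall, and the order of its sedentary libraries was similar. It stood at 9.19, 23.8, 5.55 and 22.5 CPM in young sedentary replicates 1 to 4 and at 0.965, 1.08, 1.16 and 0.311 CPM in young trained replicates 1 to 4. The groups did not overlap, and here too sedentary replicates 2 and 4 were the high ones. The log2 fold change was -4.14 (SE 0.58, edgeR adjusted p = 0.000749). Without sedentary replicates 2 and 4, an alternative picked once the data had been seen, it was -3.06 (SE 0.51, adjusted p = 0.0123), and without sedentary replicates 1 and 3 it was -4.72 (SE 0.44, adjusted p = 0.000464). Leaving out the high libraries lowers the fold by construction, so these values give only its range.

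The largest rise among called genes of at least 2 CPM belonged to ENSRNOG00000005048. It stood at 0.999, 1.91, 0.765 and 1.17 CPM in young sedentary replicates 1 to 4 and at 6.93, 2.16, 6.52 and 2.57 CPM in young trained replicates 1 to 4. Replicates 1 and 3 of the trained group were high, while replicates 2 and 4 lay just above the highest sedentary library. The log2 fold change was 1.84 (SE 0.46, edgeR adjusted p = 0.0144). Without trained replicates 1 and 3, likewise an alternative picked afterwards, it was 0.96 (SE 0.46, adjusted p = 0.156), and without trained replicates 2 and 4 it was 2.41 (SE 0.41, adjusted p = 0.00362). The first is lower and the second higher by construction, since the high or the low libraries were left out. Without sedentary replicates 2 and 4 it was 2.36 (SE 0.65, adjusted p = 0.0622), and without sedentary replicates 1 and 3 it was 1.52 (SE 0.57, adjusted p = 0.109).

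ENSRNOG00000009577 rose by nearly as much and with a much smaller spread. It ranked above ENSRNOG00000005048 on leaving out trained replicate 1 (log2 fold change 1.76 against 1.59), trained replicate 3 (1.68 against 1.64) or sedentary replicate 3 (1.85 against 1.71), so the order of these rises is not settled. It stood at 2.1, 1.71, 2.97 and 2.70 CPM in young sedentary replicates 1 to 4 and at 6.93, 7.07, 8.31 and 8.17 CPM in young trained replicates 1 to 4. The lowest trained library was well above the highest sedentary library. The log2 fold change was 1.70 (SE 0.20, edgeR adjusted p = 0.000274).

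**Figure D4:**
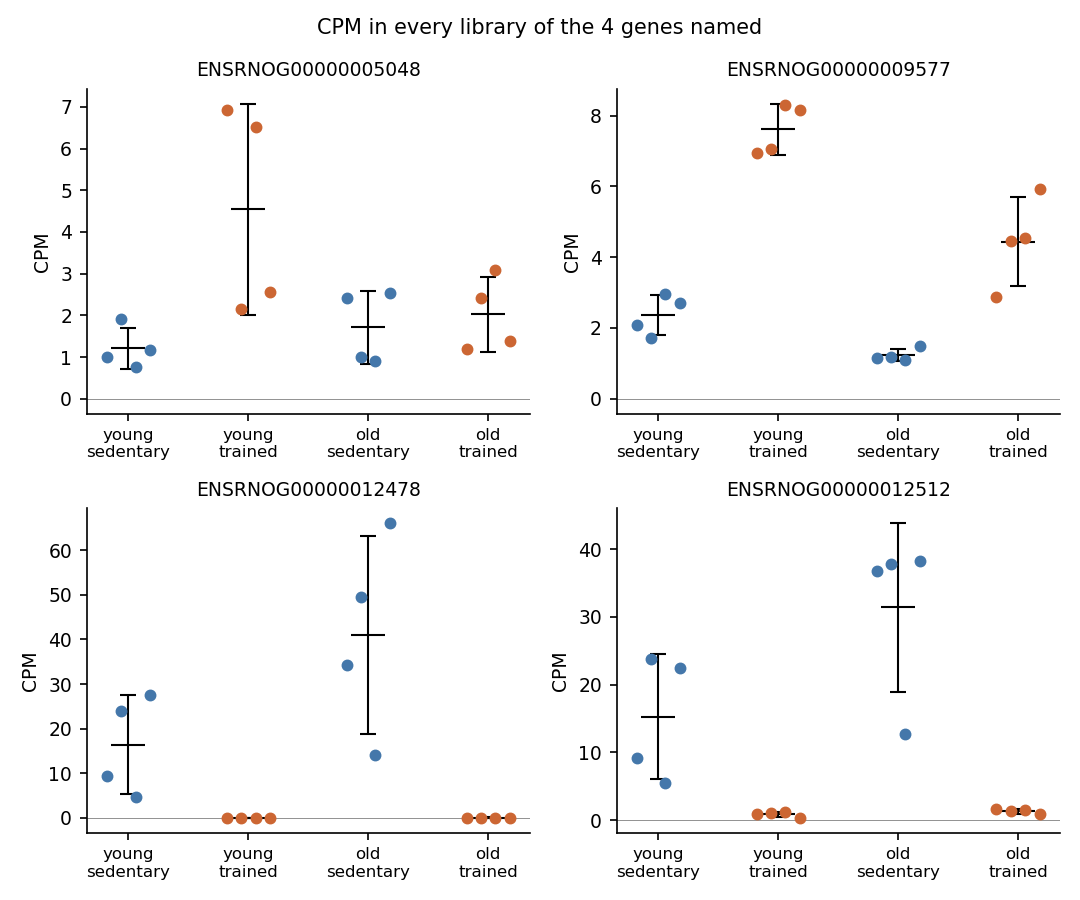
CPM (vertical axes, each with its own scale) of ENSRNOG00000005048, ENSRNOG00000009577, ENSRNOG00000012478 and ENSRNOG00000012512 in all 16 libraries, 1 point per library in order of replicate number within each group, with a black line for the mean and bars for 1 SD (n = 4). The young trained libraries of the lower panels lie near 0, and those of ENSRNOG00000005048 divide into 2 high and 2 low values.

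The division of the sedentary group seen in the 2 falling genes was common among the larger falls. Of the 450 genes that fell at least 2-fold, 265 (58.9%) had young sedentary replicates 2 and 4 as their highest sedentary libraries, against 23.9% of all genes tested, and 24 (5.33%) had replicates 1 and 3, against 19.3% of all genes tested. Relative to the sedentary mean, the median of these 450 genes was 0.23 and 0.24 log2 units in sedentary replicates 2 and 4 and -0.28 and -0.16 in replicates 1 and 3. In trained replicates 1 to 4 it was -1.42, -1.10, -1.29 and -1.52. The gap between the groups was therefore wider than the division within the sedentary group. The 450 genes were chosen by this contrast, so these medians describe them and are no test. The division seen in ENSRNOG00000005048 was not common among the rises: of the 88 genes that rose at least 2-fold, 22 (25%) had trained replicates 1 and 3 as their highest trained libraries, against 24.8% of all genes tested.

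Many called genes had groups that did not overlap. Every trained library lay above every sedentary library in 957 of the 1020 genes that rose (93.8%), and below every sedentary library in 1322 of the 1552 genes that fell (85.2%). Over all 15035 genes tested, every trained library lay above every sedentary library in 12.7% and below in 12.5%, or 25.2% in either direction. The called genes were chosen by the contrast of these same libraries, so their shares describe them and are no test. The spread within groups was of like size, with a median SD of 0.143 log2 units in young sedentary and 0.151 in young trained rats. At the lower limit of detection, 8 genes averaging at least 1 CPM in young sedentary libraries had no more than 3 counts in each young trained library, and 0 genes showed the reverse.

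The number of called genes rested on single libraries more than on the scaling. Leaving out 1 young library gave between 1289 and 2934 genes. The lowest counts were 1289 without young sedentary replicate 4 and 1374 without young trained replicate 4, the libraries at the ends of the first principal component. Of the 2572 called genes, 1082 (42.1%) were called in the same direction in all 8 of these fits, 381 higher and 701 lower. That group held 235 of the 450 genes that fell at least 2-fold and 53 of the 88 that rose at least 2-fold, and it held the 4 genes described by ID. A surrogate variable is a covariate estimated from the counts and meant to hold variation that the groups do not explain. With 1 such variable 1501 genes were called, and 1310 of the 2572 (50.9%) remained in the same direction. This variable was not free of the groups. It stood at 0.183, 0.103, 0.193 and 0.194 in young trained replicates 1 to 4. In young sedentary replicates 1 to 4 it stood at 0.131, -0.202, 0.136 and -0.112. How far it took up the training difference itself was not tested.

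**Figure D5:**
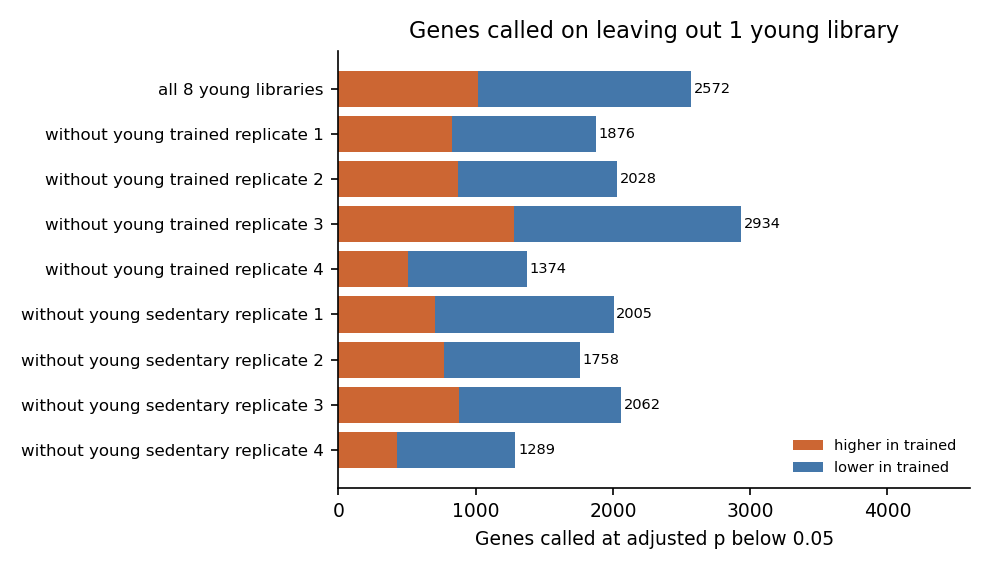
Number of genes called at adjusted p below 0.05 (horizontal axis) with all 8 young libraries and on leaving out each young library in turn, divided into genes higher and lower in trained rats. The count is lowest, at 1289 and 1374, without replicate 4 of the sedentary or of the trained group.

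The same genes were then read in the old rats, whose libraries had no part in the means of the young comparison, although all 16 libraries shared 1 estimate of each gene's spread. In the old training comparison 24.1% of genes were called, in either direction. The shares below count calls in the same direction as in young rats only. Of the 450 genes that fell at least 2-fold in young rats, 338 (75.1%) were also called lower in old trained rats, and of the 88 that rose at least 2-fold, 59 (67%) were also called higher. Over all called genes the shares were 55.4% of the genes that fell and 50.1% of those that rose. Of the genes that fell 2 were called in the opposite direction in old rats, and of those that rose 0. The medians of the 450 genes were -1.49, -1.47, -1.28 and -1.47 log2 units from the old sedentary mean in old trained replicates 1 to 4, and between -0.37 and 0.34 in the old sedentary libraries. The medians of the 88 genes were 0.74, 1.44, 1.20 and 1.39 in old trained replicates 1 to 4, and between -0.24 and 0.57 in the old sedentary libraries. Old sedentary replicate 3 gave the value of 0.57, and the other 3 old sedentary libraries were below 0.

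Of the 4 genes described by ID, 3 were called in old rats in the same direction as in young rats. The log2 fold change in old rats was -4.60 (SE 0.53) for ENSRNOG00000012512 and 1.86 (SE 0.23) for ENSRNOG00000009577, each with an edgeR adjusted p of 0.000446, while ENSRNOG00000012478 averaged 41.0 ± 22.1 CPM (SD, n = 4) without training in old rats, against 0.0574 ± 0.0385 CPM (SD, n = 4) with it (adjusted p = 0.000446). The trained libraries held 1 count of ENSRNOG00000012478 in young and 3 in old rats, too few to compare the size of its fall between the ages. ENSRNOG00000005048 had a mean of 1.72 ± 0.877 CPM (SD, n = 4) among old rats kept sedentary and one of 2.02 ± 0.894 CPM (SD, n = 4) with training, and was not called there (log2 fold change 0.27, SE 0.47, edgeR adjusted p = 0.743). Its young and old changes differed by 1.57 on the log2 scale (SE 0.67), and this difference did not pass adjustment over all genes (edgeR adjusted p = 0.335). No gene was called for a difference of the training effect between the ages in edgeR's quasi-likelihood test (0 of 15035, with 2033 at an unadjusted p below 0.05), and the DESeq2 Wald test called 44.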

How the data were processed

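The table deposited by the authors gives unnormalized read counts per library for 32754 Ensembl gene IDs. Per the submitters' processing notes, the tools were TopHat2 2.1.1, HTSeq and SAMtools, with Trimmomatic, FastQC and DESeq2, on the build Rnor_6.0. The sources used here do not give the strand setting, so overlapping, antisense and near-identical genes are uncertain. All 16 libraries were fitted with edgeR 4.0.16 in R 4.3.3 (filterByExpr by group, TMM, glmQLFit robust, 1 mean per group, 12 residual degrees of freedom). The contrast of young trained and young sedentary rats was tested 2-sided with glmQLFTest, with Benjamini-Hochberg adjustment over 15035 genes. A gene was called at an adjusted p below 0.05. Standard errors are the log2 fold change divided by the square root of F. Principal components used log2 CPM with a prior count of 2. The labels name the replicates as biological, and no young replicates of a group were alike to within counting noise. The test was also run on simulated counts drawn independently for each library. The outcome is not reported here, and no support for the calls is drawn from it.

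Because no ID matched a gene name, the rule for named genes took the 2 largest rises and the 2 largest falls among called genes with a mean of at least 2 CPM over the young libraries. The comparison and the lists were chosen with earlier results of these data known. Alternatives used DESeq2 1.42.0, limma 3.58.1 and sva 3.50.0. Settings that left out 2 libraries, a term for odd and even replicate numbers and 2 surrogate variables came after the data had been seen.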

Additional observations from a re-analysis of the deposited data

Results flagged for a closer look

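Of 16 sets of 4 young libraries examined for a library far from the rest (the 4 genes described by ID, total counts, genes with a count and the first 2 principal components, in each group), 1 had such a library. ENSRNOG00000012478 stood at 0.0878 CPM in young trained replicate 1 and at 0 in the other 3 trained libraries, a difference of 1 count. Chance marks about 1 in 20 sets of continuous values. A set of 3 zeros and 1 count is always marked by this rule, so that rate does not apply to it.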

How the results depend on the processing

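The count of 2572 called genes was 4393 with limma voom and sample weights, 1501 with 1 surrogate variable and 1492 over genes averaging 4 or more in log2 CPM, where 8602 genes were tested. Under alternatives picked once the data had been seen it was 800 with 2 surrogate variables, 525 without young sedentary replicates 2 and 4, 1480 without young sedentary replicates 1 and 3, 996 without young trained replicates 2 and 4 and 2750 without young trained replicates 1 and 3. Leaving out 1 young library gave 1289 to 2934. Apart from the fewer genes or libraries that some of these settings hold, the cause was not tested. The other scalings, the DESeq2 Wald test, the other filters and the fit to the 8 young libraries gave 2034 to 3034. The count of 0 genes for the difference of the training effect between ages was 44 with the DESeq2 Wald test and 0 to 5 on leaving out 1 young library, with 5 without young trained replicate 3. The difference in total counts ran from 159444 to 1672653 on leaving out 1 young library, with exact permutation p from 0.0571 to 0.914. The 4 genes described by ID kept their direction in every setting that tested them. ENSRNOG00000005048 lost its call in 3 of the settings that left out 2 libraries, and its log2 fold change over the fits without 1 library ran from 1.59 to 2.21.

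Whether replicate numbers pair the young libraries was not settled. The correlation of same-numbered deviations from the group means was 0.101, 0.201, 0.163 and -0.06 for numbers 1 to 4. Sedentary replicate 4 correlated best with trained replicate 2 (0.175), and trained replicate 4 with sedentary replicate 1 (0.0905). Numbers 1, 2 and 3 each correlated best with their own number from both sides, a hint from the data and not from the labels. With a replicate block 2835 genes were called for training in young rats and 0 for the difference between ages. A term for odd and even replicate numbers gave 2889. Depth limits the genes under 1 CPM most, where the median standard error was 0.41 on the log2 scale, against 0.10 at 256 CPM and over.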
